A study of Danio rerio with 18 samples.

Results

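The comparison described here set 6 samples of akr1a1a-/- zebrafish larvae against 6 samples of akr1a1a+/+ (wild-type) larvae, 12 of the 18 RNA-Seq samples of the series, and asked which tissues and pathways differed across all genes. Each sample was 1 clutch of pooled whole larvae, collected at 120 hpf (hours post fertilization). The members were taken from the genotype and treatment labels (akr1a1a-KO with Ctrl, and WT with Ctrl). The mutation is a CRISPR/Cas9 deletion-insertion in an early exon of akr1a1a, kept as a single line in the Tg(fli1:EGFP) background, in which the fli1 promoter drives EGFP in vessels. Per the labels of every sample, larvae of both genotypes were raised in E3 medium with PTU, which blocks pigment formation. The other 6 samples, wild-type larvae treated with acrolein, entered the model only for the spread between samples and for the checks of the sequencing lane.

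Akr1a1a is an aldo-keto reductase, an enzyme that reduces reactive aldehydes such as acrolein to alcohols with NADPH. A free-swimming larva of this age has contracting muscle, a beating heart, a functioning retina, circulating red cells that still carry embryonic-type globins, and a liver and gut that have taken over from the yolk. Iron reaches red cell precursors on transferrin through transferrin receptors and is built into heme, the oxygen-binding group of hemoglobin. The same metal and the same heme serve the mitochondrial respiratory chain, which passes electrons from NADH and succinate to oxygen.

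Total estimated counts lay between 19878464 and 20463404 per sample, so that all samples were of nearly equal depth. Levels are given as CPM (the counts of a gene as a share of the library, scaled to a common total) as the lowest, the median and the highest of the 6 clutches of a genotype, and +/+ and -/- stand for akr1a1a+/+ and akr1a1a-/-. Changes are log2 fold changes of akr1a1a-/- over akr1a1a+/+ larvae ± SE from edgeR's quasi-likelihood test. A gene is said to have risen or fallen where its Benjamini-Hochberg adjusted p over all 23223 genes tested was under 0.05. Defining genes of skin (krt4, a keratin of the surface layer), muscle (actc1b, an actin) and liver (apoa1b, an apolipoprotein) were abundant in every clutch, with medians of 11788, 17149.6 and 3381 CPM in +/+ larvae and 11777, 18542 and 3427 CPM in -/- larvae. In such bulk samples, fewer cells of a type and less RNA per cell cannot be told apart.

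The mutated gene itself was at 2.32, 3.11 and 3.41 CPM in +/+ and 0.306, 0.399 and 0.741 CPM in -/- larvae. Its groups did not overlap (-2.75 ± 0.17, adjusted p = 1.13e-09). AKR1A1, the second gene of this enzyme in the zebrafish genome, was at 13, 14.5 and 17 CPM in +/+ and 15.5, 17.2 and 17.8 CPM in -/- larvae, with overlapping groups and no call (0.20 ± 0.074, adjusted p = 0.0716). Without +/+ replicate 3 this second gene passed the threshold (adjusted p = 0.0264, against 0.0611 to 0.142 without each other clutch), as it did in the fit blocked on replicate number (adjusted p = 0.0483).

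Of the 23223 genes tested, 3752 (16.2%) passed the threshold, 1903 (8.19%) higher and 1849 (7.96%) lower in akr1a1a-/- larvae, and the median log2 fold change of all genes was -0.00074. On the log2(TPM + 1) scale, where TPM corrects a gene's share for transcript length, limma's test gave a different balance and the split was 1210 higher and 2484 lower. These TPM values were not normalized between samples, and the median log2 fold change of all genes on this scale was -0.049. Of its calls 32.8% were higher, against 50.7% in edgeR's test. Counts of single lists on this scale are to be read beside that offset. In edgeR's test a change of at least 2-fold was seen for 685 genes (2.95%), 266 higher (1.15%) and 419 lower (1.8%). The 6 values of each genotype did not overlap for 1729 genes (7.45%), 882 higher (3.8%) and 847 lower (3.65%), and 49.8% of all genes had a fold change above 0. All akr1a1a+/+ libraries came from sequencing lane 2 and all akr1a1a-/- libraries from lane 3. Within these 12 samples a difference of lane and one of genotype cannot be told apart. The acrolein-treated samples lay on both lanes. With lane as a covariate 1498 genes (6.45%) were called, and 1061 of the 3752 calls (28.3%) were made again in the same direction. In that fit the lane term rested on the acrolein-treated samples alone, replicates 1 to 3 on lane 2 and 4 to 6 on lane 3. The genotype estimate is then less precise, so a call lost in this fit does not by itself show an effect of lane. On lane 3 only, where 1859 genes (7.99%) were called and akr1a1a-/- larvae could be set against just 3 acrolein-treated wild-type samples, 1475 (39.3%) were made again and 3678 (98.0%) had the same sign. This last comparison used the same 6 akr1a1a-/- samples as the main fit, so the shared calls and signs are not independent of it. It also differs in treatment.

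Described over 55 lists of tissue and pathway genes, the calls were uneven, as the plot of calls per list shows. More members rose than fell in 33 lists and more fell than rose in 18. The lists with the largest shares of rising genes were histones, oxidative phosphorylation, DNA replication and cell cycle, and erythrocytes. The lists in which genes fell and none rose were the immediate early response, pigment cells, lens, and the circadian clock. For the circadian clock the share that fell was only 5%, under that of all tested genes. A share near 8.19% higher or 7.96% lower is that of all tested genes.

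**Figure D1:**
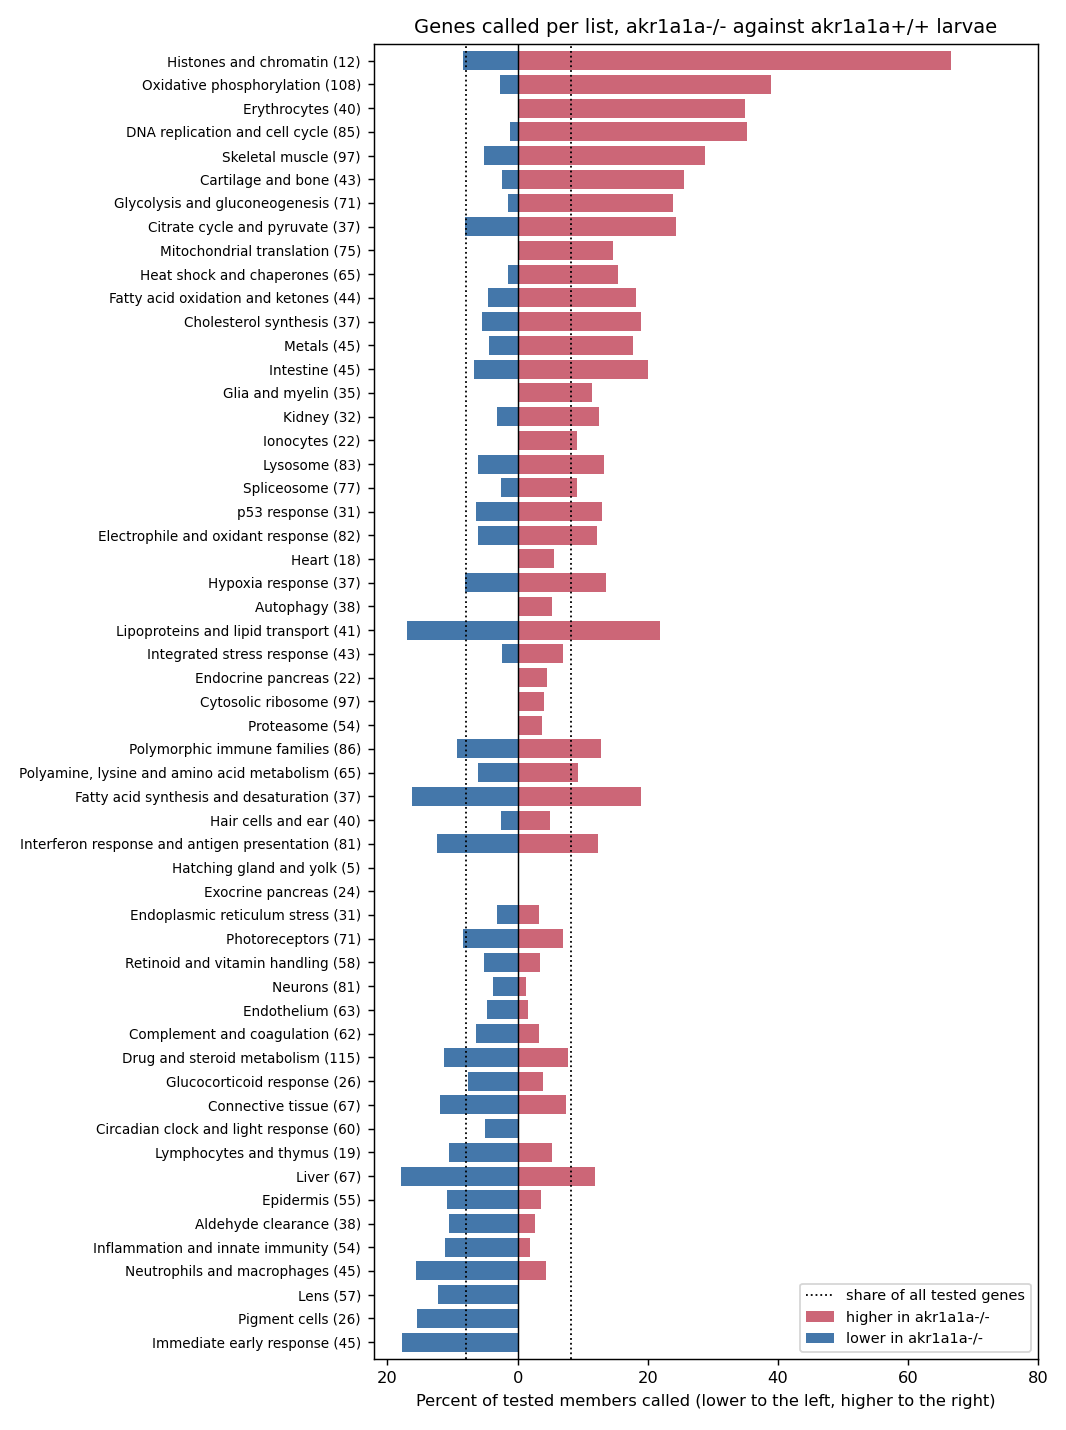
Percent of the tested members of each list called higher (red, to the right) or lower (blue, to the left) in akr1a1a-/- larvae. The number tested stands in parentheses, and dotted lines mark the shares of all tested genes, 8.19% and 7.96%. Oxidative phosphorylation, erythrocytes and DNA replication reach far past the dotted line on the right, whereas the immediate early response and pigment cells lie only on the left.

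Genes of iron uptake, heme synthesis and red cells were higher in akr1a1a-/- larvae. Of the erythrocyte list, 14 of 40 tested genes rose and 0 fell (median log2 fold change 0.47), and on the log2(TPM + 1) scale 13 and 0 did so. Of these 14 calls, 6 were also made with lane as a covariate and 7 on lane 3 only. tfr1b, a transferrin receptor that brings iron into cells, was at 28.4, 32.1 and 41.5 CPM in +/+ and 61.9, 100.4 and 141 CPM in -/- larvae. tfr1a, the transferrin receptor of zebrafish red cell precursors, was at 11.1, 15.2 and 18.4 CPM in +/+ and 25.1, 40.8 and 49.5 CPM in -/- larvae. No -/- clutch was as low as the highest +/+ clutch for either receptor. Their log2 fold changes were 1.61 ± 0.15, adjusted p = 5.39e-07, and 1.37 ± 0.17, adjusted p = 1.35e-05.

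The enzymes that build heme moved in the same direction. ALAS1, which catalyzes the first step of heme synthesis in most tissues, was at 195, 249 and 326 CPM in +/+ and 516, 790.0 and 991 CPM in -/- larvae. Its groups were fully separate (1.63 ± 0.14, adjusted p = 1.69e-07). ALAS1 was in no list and was chosen after its values were seen. alas2, the red cell form of that enzyme, was at 8.93, 20.5 and 24.5 CPM in +/+ and 22.6, 60.9 and 100.3 CPM in -/- larvae, where the lowest -/- clutch lay within the +/+ range (1.76 ± 0.33, adjusted p = 0.001). The later enzymes UROD (0.83 ± 0.20, adjusted p = 0.0069) and PPOX (0.55 ± 0.14, adjusted p = 0.00829) rose as well. klf1, a transcription factor of red cell genes, was at 1.42, 2.8 and 4.08 CPM in +/+ and 3.46, 5.95 and 7.96 CPM in -/- larvae, with overlapping groups (1.07 ± 0.25, adjusted p = 0.00554).

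Hemoglobin genes themselves were more variable between clutches. Of 10 globin genes, 1 rose and none fell, with a median log2 fold change of 0.67. The gene that rose is 1 of several listed as HBE1 (ENSDARG00000087390), at 19.7, 37.1 and 75.1 CPM in +/+ and 47.9, 102 and 140.2 CPM in -/- larvae (1.28 ± 0.34, adjusted p = 0.013). hbae3, an embryonic alpha globin, was at 56.1, 211 and 276 CPM in +/+ and 278, 325 and 422 CPM in -/- larvae. Its groups did not overlap, yet the call was missed (0.93 ± 0.38, adjusted p = 0.106), while it passed on lane 3 only (adjusted p = 0.0176) and in the fit blocked on replicate number (adjusted p = 0.0474, with 0.0176 to 0.644 over all alternatives). Globin genes of the cluster are near-identical, so that the split of reads between them is uncertain. Summed over the 10 genes, hemoglobin mRNA was at 293, 905 and 1195 CPM in +/+ and at 772, 1160.1 and 1700.4 CPM in -/- larvae. SLC4A1, the anion exchanger of the red cell membrane (ENSDARG00000012881), passed the threshold (1.06 ± 0.34, adjusted p = 0.0372) but not without any 1 of 6 clutches, +/+ replicates 1, 2 and 3 and -/- replicates 4, 5 and 6 (adjusted p up to 0.0895).

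Genes of iron storage and transport were tallied in a list of metal handling, which also holds both transferrin receptors. Of this list, 8 of 45 tested genes rose and 2 fell (median log2 fold change 0.056), or 7 and 5 on the log2(TPM + 1) scale. fth1a, a ferritin chain that stores iron, was at 716, 736.7 and 834 CPM in +/+ and 943, 1091 and 1250.3 CPM in -/- larvae. SLC40A1, ferroportin, the exporter that releases iron from cells, was at 80.2, 85.8 and 106 CPM in +/+ and 114, 134 and 161 CPM in -/- larvae. tfa, the transferrin of the blood, was at 1021, 1159 and 1329 CPM in +/+ and 1388, 1679.6 and 1832 CPM in -/- larvae. For these genes every -/- clutch lay above every +/+ clutch, with changes of 0.56 ± 0.059, adjusted p = 2.27e-06, 0.61 ± 0.082, adjusted p = 3.94e-05 and 0.50 ± 0.078, adjusted p = 0.000215. slc11a2, a transporter that takes iron up from the gut and from endosomes, rose by 0.45 (adjusted p = 0.00372).

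In the opposite direction, hamp, which encodes hepcidin, the hormone that limits iron release, was at 0.35, 0.765 and 1.63 CPM in +/+ and 0.0988, 0.3 and 0.511 CPM in -/- larvae (-1.50 ± 0.41, adjusted p = 0.0174). It was close to the detection floor of 3 counts (about 0.15 CPM), and the call was lost without +/+ replicate 4 (adjusted p = 0.0538). epoa, erythropoietin, the hormone that drives red cell formation, fell from 2.27 to 1.25 CPM (medians) with separate groups (-0.89 ± 0.19, adjusted p = 0.0026). Of the erythrocyte and metal genes named here, tfr1b, tfr1a, ALAS1, PPOX, fth1a, SLC40A1 and epoa were also called with lane as a covariate and on lane 3 only. UROD was called with the covariate and not on lane 3 only. The calls for alas2, SLC4A1, klf1, HBE1, tfa, slc11a2 and hamp were not made with the lane covariate.

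**Figure D2:**
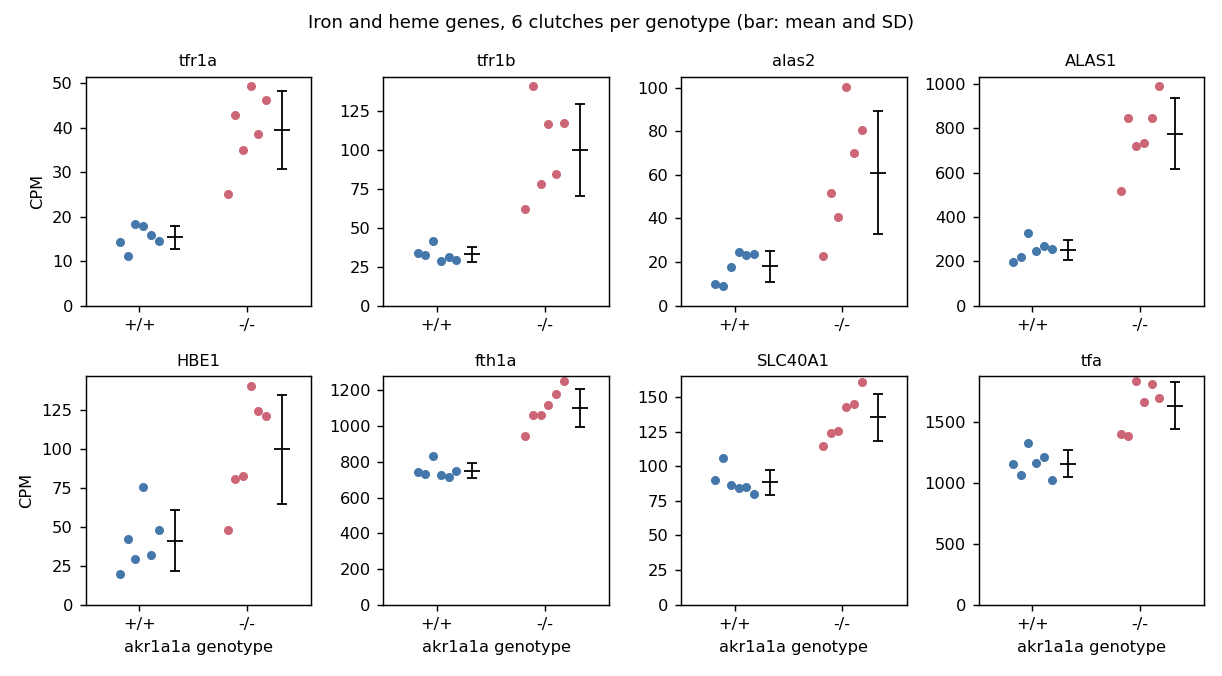
CPM of 8 iron and heme genes in each of 6 +/+ (blue) and 6 -/- (red) clutches, with the mean and SD beside the points and each axis starting at 0. The groups of tfr1a, tfr1b, ALAS1, fth1a, SLC40A1 and tfa are separate, and those of alas2 and HBE1 overlap.

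The respiratory chain rose in small steps that were shared by many subunits. Of the oxidative phosphorylation genes, 42 of 108 tested genes rose and 3 fell (median log2 fold change 0.17), and 97 had a fold change above 0. On the log2(TPM + 1) scale 32 and 4 passed. Of complex I, the entry point for NADH, 15 of 39 nuclear genes rose. Of complexes II to V, 21 of 56 rose and 3 fell. Of these 45 calls, 22 were also made with lane as a covariate and 25 on lane 3 only. Leaving out 1 clutch at a time gave 30 to 54 calls.

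NDUFS8, an iron-sulfur subunit of complex I, was at 139, 144 and 153 CPM in +/+ and 171, 199 and 215 CPM in -/- larvae. NDUFA9, another complex I subunit, was at 86.8, 96.5 and 98.6 CPM in +/+ and 112, 117 and 131 CPM in -/- larvae. Both were higher in every -/- clutch than in any +/+ clutch (0.44 ± 0.053, adjusted p = 1.4e-05, and 0.35 ± 0.049, adjusted p = 6.3e-05). In complex III, the heme protein cytochrome c1 gene CYC1 rose by 0.31 (adjusted p = 0.000274), and in the ATP synthase the ring subunit ATP5MC3 rose by 0.36 (adjusted p = 0.000547).

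The largest rises of the list were in genes of cytochrome c oxidase, complex IV. cox4i1l was at 3.14, 5.42 and 6.81 CPM in +/+ and 8.23, 10.8 and 15.9 CPM in -/- larvae (1.07 ± 0.18, adjusted p = 0.000433). A COX5B gene (ENSDARG00000068738) was at 5.25, 6.24 and 8.52 CPM in +/+ and 11.3, 13.5 and 15.5 CPM in -/- larvae (1.04 ± 0.14, adjusted p = 4e-05). Neither was called with the lane covariate. In the same complex COX7C fell, from 66.2, 83.1 and 85.8 to 46.4, 53 and 59.9 CPM (-0.60 ± 0.07, adjusted p = 8.55e-06). SDHB, the iron-sulfur subunit of complex II, also fell (-0.33 ± 0.065, adjusted p = 0.00174). Genes of the mitochondrial genome showed the common pattern at high levels, and 6 of 13 rose. Of these 6 calls, 1 was also made with lane as a covariate and 4 on lane 3 only. MT-CYB, cytochrome b of complex III, was at 4634, 4783 and 4892 CPM in +/+ and 5407, 5694 and 5875 CPM in -/- larvae (0.25 ± 0.048, adjusted p = 0.00139). MT-ND1 (0.26 ± 0.052, adjusted p = 0.00212) and MT-CO1 (0.18 ± 0.045, adjusted p = 0.0084) rose to a like degree, MT-CO1 only on the count scale (adjusted p = 0.0885 on the log2(TPM + 1) scale, with 0.000111 to 0.167 over all alternatives).

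Pathways that feed the chain moved with it in part. In the citrate cycle list 9 of 37 tested genes rose and 3 fell (median log2 fold change 0.052). IDH3B, a subunit of isocitrate dehydrogenase, rose by 0.51 (adjusted p = 0.000239). PDK1, a kinase that switches pyruvate dehydrogenase off, was at 25.1, 26.1 and 31.2 CPM in +/+ and 17.5, 19.5 and 21.7 CPM in -/- larvae and fell (-0.44 ± 0.088, adjusted p = 0.00165). Fewer genes passed for mitochondrial ribosomal proteins, of which 11 of 75 tested genes rose and 0 fell (median log2 fold change 0.10), of which 3 were also called with the lane covariate and 1 on lane 3 only, led by MRPL49 (0.45 ± 0.058, adjusted p = 2.48e-05) and mrpl34 (0.44 ± 0.058, adjusted p = 3.07e-05). On the log2(TPM + 1) scale the citrate cycle had 6 and 4 and the mitochondrial ribosome 5 and 2 genes higher and lower. Calls for the mitochondrial ribosome numbered 6 without +/+ replicate 4 or 6 and 7 without -/- replicate 1 or 6.

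Of fatty acid oxidation genes, 8 of 44 tested genes rose and 2 fell (median log2 fold change 0.11), and 6 were called without -/- replicate 5. cpt1ab, which admits long fatty acids into mitochondria, was at 47.7, 56.2 and 73.3 CPM in +/+ and 77.4, 84.8 and 102 CPM in -/- larvae. ACAA2, a thiolase of the last oxidation step, was at 39.6, 62 and 79.2 CPM in +/+ and 85.4, 101 and 120.0 CPM in -/- larvae. Both groups of values were separate (0.57 ± 0.11, adjusted p = 0.00134, and 0.78 ± 0.18, adjusted p = 0.00615). ACOX3, a peroxisomal oxidase of branched fatty acids, rose from 20.8 to 29.7 CPM (0.54 ± 0.071, adjusted p = 3.04e-05). hadhaa, a subunit of the trifunctional protein, rose by 0.54 (adjusted p = 0.000347). These 4 genes were called with the lane covariate and on lane 3 only as well.

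**Figure D3:**
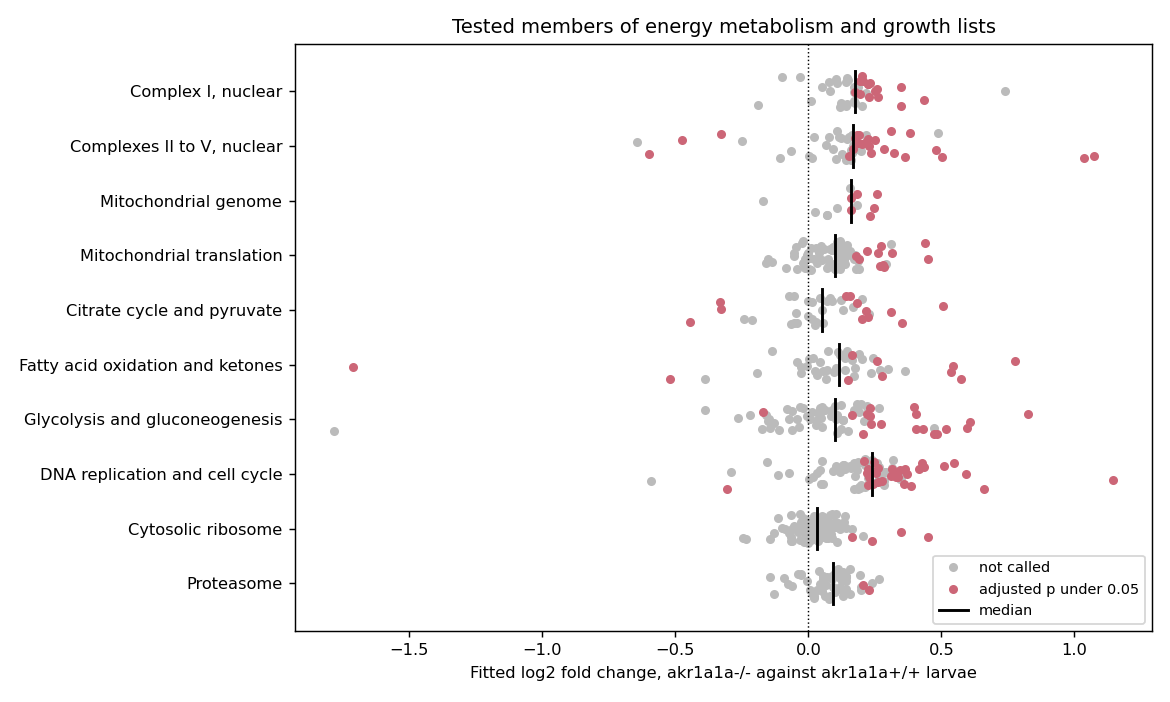
Fitted log2 fold change (akr1a1a-/- over akr1a1a+/+) of every tested member of 8 energy metabolism and growth lists, oxidative phosphorylation shown as 3 groups and a dotted line at 0. Red points passed an adjusted p of 0.05, gray points did not, and black bars are medians. The respiratory groups have medians near 0.17, whereas the cytosolic ribosome lies close to 0 with 4 genes called.

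The lists of cytosolic ribosomal proteins and of the proteasome held a smaller share of calls than all genes did. Of 97 genes of cytosolic ribosomal proteins 4 rose and none fell, and of 54 proteasome genes 2 rose and none fell, both of these lost without any 1 of 6 clutches (0 and 1 on the log2(TPM + 1) scale). The median log2 fold change was 0.034 for the ribosome, with 70 genes above 0, and 0.091 for the proteasome, with 45 above 0. Chaperone genes had 10 rises and 1 fall among 65, or 5 and 1 on the log2(TPM + 1) scale. Of these 11 calls, 3 were also made with lane as a covariate and 2 on lane 3 only. The rises included several subunits of the TRiC chaperonin, which folds actin and tubulin, such as CCT2 (0.42 ± 0.069, adjusted p = 0.0003). The fall was in hspb15, a small heat shock protein (-0.66 ± 0.076, adjusted p = 6.66e-06). Of 77 splicing genes 7 rose and 2 fell (3 and 7 on the log2(TPM + 1) scale), with CDC5L, a core splicing factor, at 55.6, 59.3 and 59.7 CPM in +/+ and 71, 84.6 and 101 CPM in -/- larvae (0.52 ± 0.061, adjusted p = 8.62e-06).

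Genes of skeletal muscle, the largest tissue of the larva, changed mostly upward. Of its list, 28 of 97 tested genes rose and 5 fell (median log2 fold change 0.10), or 19 and 6 on the log2(TPM + 1) scale. By role, 5 of 18 thick filament genes, 10 of 42 thin filament and Z disc genes, and 13 of 37 genes of calcium handling and energy supply rose. Of these 33 calls, 15 were also made with lane as a covariate and 23 on lane 3 only. actc1b, which took the most reads of the list, had no call (0.077 ± 0.086, adjusted p = 0.588).

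PYGM, the muscle glycogen phosphorylase that frees glucose units from glycogen (ENSDARG00000055518), was at 70.8, 81.4 and 96.4 CPM in +/+ and 139, 153 and 211 CPM in -/- larvae. The actin gene actc1a was at 118, 138 and 164 CPM in +/+ and 268, 298 and 355 CPM in -/- larvae. ACTA1, skeletal muscle actin (ENSDARG00000055618), was at 907, 1061 and 1264 CPM in +/+ and 1542, 1979.9 and 2298 CPM in -/- larvae. In all of these each -/- clutch was above each +/+ clutch, with changes of 0.97 ± 0.11, adjusted p = 7.16e-06, 1.12 ± 0.13, adjusted p = 1.06e-05 and 0.86 ± 0.11, adjusted p = 1.35e-05. Actin genes are similar in sequence, which makes the split of reads between them uncertain.

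Among myosin heavy chains of fast fibers, myhz1.3 was at 2410.1, 2528 and 2848 CPM in +/+ and 3184, 3693 and 3969 CPM in -/- larvae (0.48 ± 0.067, adjusted p = 7.08e-05) and myhc4 at 2.84, 17.1 and 28.2 CPM in +/+ and 38.1, 51.1 and 62.7 CPM in -/- larvae (1.63 ± 0.34, adjusted p = 0.00277). trdn, triadin, which anchors the calcium release channel, rose by 0.55 (adjusted p = 0.000274). ckmb, a muscle creatine kinase, rose by 0.27 (adjusted p = 0.00294). The smallest p among the falls was that of pvalb4, a parvalbumin, which buffers calcium in fast fibers, at 791, 896 and 1019.7 CPM in +/+ and 568, 594 and 637 CPM in -/- larvae (-0.59 ± 0.069, adjusted p = 8.55e-06). All of the muscle genes named in these paragraphs, except ckmb and actc1b, were also called with the lane covariate and on lane 3 only. Of 18 heart genes 1 rose (0 rose and 1 fell on the log2(TPM + 1) scale), and this call was lost without any 1 of 8 clutches.

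Glycolysis breaks glucose down to pyruvate and lactate, and muscle has isoforms of its own for several steps. Of glycolysis and gluconeogenesis genes, 17 of 71 tested genes rose and 1 fell (median log2 fold change 0.10), or 12 and 2 on the log2(TPM + 1) scale. Of these 18 calls, 4 were also made with lane as a covariate and 4 on lane 3 only. LDHA, lactate dehydrogenase, was at 233, 259 and 274 CPM in +/+ and 333, 400.0 and 414 CPM in -/- larvae. Both PFKM genes, which encode muscle phosphofructokinase, rose (0.61 ± 0.10, adjusted p = 0.000395 for ENSDARG00000060797, and 0.52 ± 0.10, adjusted p = 0.00151 for ENSDARG00000014179). LDHA (0.60 ± 0.075, adjusted p = 1.89e-05) and PGAM2, muscle phosphoglycerate mutase (0.47 ± 0.083, adjusted p = 0.000618), had separate groups. GAPDH, which took the most reads of the list, was at 1921, 2033 and 2276 CPM in +/+ and 1669.9, 1792 and 2120.3 CPM in -/- larvae, with overlapping groups and no call (-0.15 ± 0.08, adjusted p = 0.216). With the lane covariate it was called lower (adjusted p = 0.0305, with 0.0305 to 0.367 over all alternatives).

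Several collagens and other matrix genes of cartilage rose. Of cartilage and bone genes, 11 of 43 tested genes rose and 1 fell (median log2 fold change 0.089), or 4 and 2 on the log2(TPM + 1) scale. COL2A1, the main collagen of cartilage and notochord (ENSDARG00000069093), was at 979, 1173 and 1223 CPM in +/+ and 1388, 1476 and 1559 CPM in -/- larvae. COL11A2, which makes mixed fibrils with it, was at 215, 238 and 264 CPM in +/+ and 285, 316 and 349.9 CPM in -/- larvae. Their groups were separate (0.36 ± 0.058, adjusted p = 0.000227, and 0.41 ± 0.058, adjusted p = 6.83e-05), as were those of cnmd, chondromodulin (0.32 ± 0.051, adjusted p = 0.000234), and epyc, epiphycan (0.29 ± 0.049, adjusted p = 0.000406). SOX9, the transcription factor that turns cartilage matrix genes on (ENSDARG00000043923), fell (-0.24 ± 0.066, adjusted p = 0.0168) with overlapping groups. Of these 12 calls, 5 were also made with lane as a covariate and 6 on lane 3 only.

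Lipid transport, gut and liver changed in both directions, and at large fold sizes. Of lipoprotein and lipid transport genes, 9 of 41 tested genes rose and 7 fell (median log2 fold change -0.03), or 6 and 10 on the log2(TPM + 1) scale. apoea, an apolipoprotein E gene that in zebrafish also marks macrophages and microglia, was at 132, 164 and 187 CPM in +/+ and 294, 325 and 371 CPM in -/- larvae. Its partner apoeb was at 482, 544 and 603 CPM in +/+ and 366, 411 and 524 CPM in -/- larvae. These copies thus moved in opposite directions, apoea with separate groups (1.03 ± 0.1, adjusted p = 7.5e-07) and apoeb with overlapping groups (-0.34 ± 0.09, adjusted p = 0.0142).

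apoa4a, an apolipoprotein of gut and yolk lipoproteins, was at 2.84, 4.06 and 5.15 CPM in +/+ and 6.67, 10.6 and 15.4 CPM in -/- larvae (1.42 ± 0.17, adjusted p = 1.2e-05), and apoa4b.2 rose as well (0.69 ± 0.14, adjusted p = 0.00168). Among genes that act on lipoproteins in the blood, LPL, CETP and LCAT fell. LPL, lipoprotein lipase (ENSDARG00000087697), was at 139, 163 and 174 CPM in +/+ and 107, 119.6 and 123 CPM in -/- larvae. CETP, which exchanges cholesterol esters, fell with separate groups (-0.64 ± 0.12, adjusted p = 0.0011), as did LPL (-0.45 ± 0.063, adjusted p = 6.66e-05). LCAT, which makes cholesterol esters, fell with overlapping groups (-0.92 ± 0.18, adjusted p = 0.00164). apoa1b, which took the most reads of the list, had no call (-0.011 ± 0.095, adjusted p = 0.956), and its sign changed without any 1 of 4 clutches. Of these 16 calls, 7 were also made with lane as a covariate and 8 on lane 3 only.

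**Figure D4:**
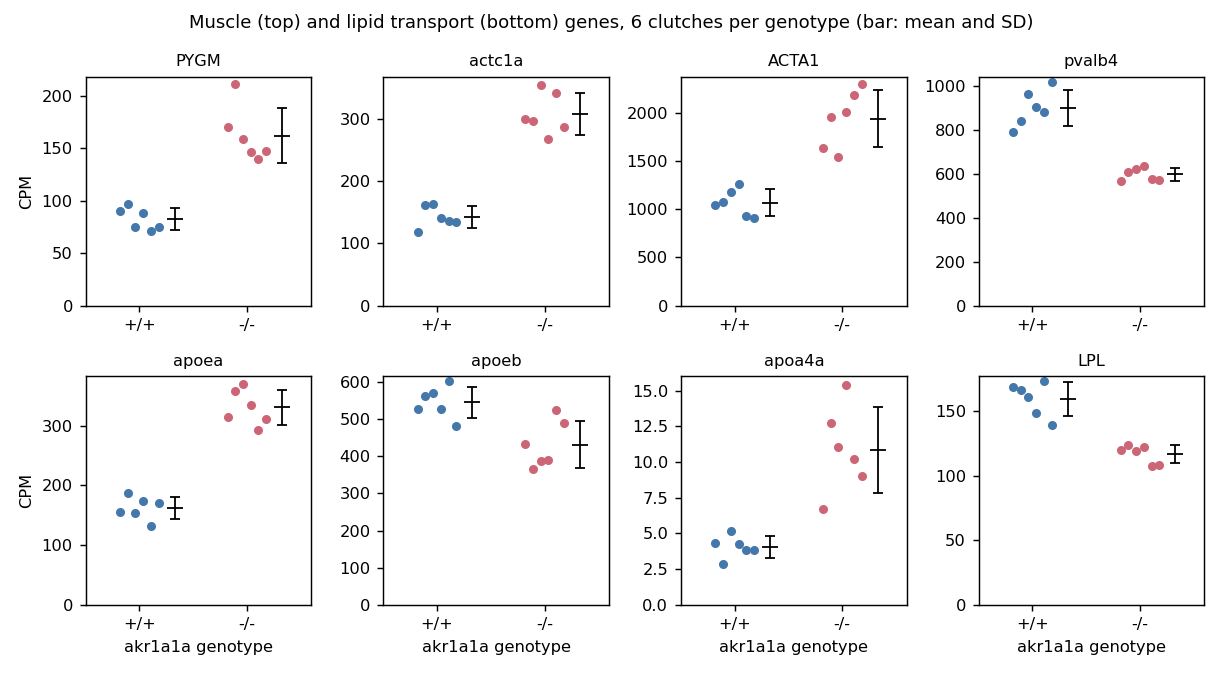
CPM of 4 muscle genes (top) and 4 lipid transport genes (bottom) in each of 6 +/+ (blue) and 6 -/- (red) clutches, with the mean and SD beside the points and each axis starting at 0. PYGM, actc1a, ACTA1, apoea and apoa4a are higher and pvalb4 and LPL lower in every -/- clutch, whereas the apoeb groups overlap.

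In the gut list 9 of 45 tested genes rose and 3 fell (median log2 fold change 0.19), and 11 to 18 were called without 1 clutch. Of the 12 calls of the main fit, 5 were also made with lane as a covariate and 10 on lane 3 only. Besides the apolipoproteins, the rises included receptors and enzymes of the absorbing cells. CUBN, cubilin, a receptor for vitamin and protein uptake in gut and kidney, was at 30.0, 42.6 and 49.3 CPM in +/+ and 47.7, 61.8 and 86.7 CPM in -/- larvae (0.68 ± 0.17, adjusted p = 0.00851). It was called neither with the lane covariate (adjusted p = 0.232) nor on lane 3 only (0.0723). The chitinase genes of the list, neighbors in a family of near-identical copies, differed in direction. chia.3 was at 0.494, 0.874 and 1.07 CPM in +/+ and 1.53, 2.74 and 4.24 CPM in -/- larvae (1.67 ± 0.23, adjusted p = 6.42e-05), and chia.6 at 7.65, 11.1 and 12.5 CPM in +/+ and 3.59, 5.51 and 6.51 CPM in -/- larvae (-0.98 ± 0.16, adjusted p = 0.000276). Exocrine pancreas genes had no call among 24 in edgeR's test, with 5 at an unadjusted p under 0.05 and 0 of these 24 called by DESeq2's Wald test. Without +/+ replicate 2 there were 2 calls, and 1 without -/- replicate 5.

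Of liver genes, 8 of 67 tested genes rose and 12 fell (median log2 fold change -0.12), or 5 and 14 on the log2(TPM + 1) scale. By role, 6 of 40 genes of secreted proteins and carriers rose and 9 fell, and of 27 metabolic enzymes 2 rose and 3 fell. The falls with the smallest p included genes of plasma proteins. hpxb, hemopexin, which binds free heme in plasma, was at 10.21, 11.6 and 15 CPM in +/+ and 4.74, 6.7 and 7.81 CPM in -/- larvae. ahsg1, a fetuin, was at 9.61, 18.8 and 34.2 CPM in +/+ and 3.35, 3.79 and 8.49 CPM in -/- larvae. agt, angiotensinogen, was at 57.5, 67.4 and 83.4 CPM in +/+ and 33.5, 39.4 and 53.4 CPM in -/- larvae. The groups of these genes did not overlap (-0.89 ± 0.12, adjusted p = 4.02e-05, -2.01 ± 0.39, adjusted p = 0.00163 and -0.72 ± 0.12, adjusted p = 0.000485). fetub, a second fetuin, fell with overlapping groups (-0.81 ± 0.20, adjusted p = 0.00925), and PLG, plasminogen, fell with separate groups (-0.55 ± 0.15, adjusted p = 0.0143). In the opposite direction, serpina7, which in mammals carries thyroid hormone, was at 0, 1.92 and 5.38 CPM in +/+ and 6.75, 11.5 and 20.6 CPM in -/- larvae (2.41 ± 0.67, adjusted p = 0.0174, with an adjusted p of 0.0771 by DESeq2's Wald test and 0.00725 to 0.573 over all alternatives).

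Genes of lipid synthesis changed in both directions. Of fatty acid synthesis genes, 7 of 37 tested genes rose and 6 fell (median log2 fold change 0.079), or 4 and 7 on the log2(TPM + 1) scale. mlxipl, the carbohydrate-responsive regulator ChREBP, was at 0.203, 0.522 and 0.648 CPM in +/+ and 1.28, 1.5 and 1.87 CPM in -/- larvae. elovl8b, a fish elongase, was at 0.75, 3.48 and 5.74 CPM in +/+ and 8.83, 9.7 and 10.33 CPM in -/- larvae. Both rose without overlap (1.62 ± 0.24, adjusted p = 0.000126, and 1.61 ± 0.35, adjusted p = 0.00385). DGAT1, which makes triglycerides (ENSDARG00000054914), fell from 24.1 to 17.4 CPM (-0.46 ± 0.069, adjusted p = 0.000113). ME1, malic enzyme, which supplies NADPH, rose (0.75 ± 0.099, adjusted p = 3.09e-05) on the count scale but had an adjusted p of 0.83 on the log2(TPM + 1) scale, with 1.95e-10 to 0.83 over all alternatives.

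For cholesterol, 7 of 37 tested genes rose and 2 fell (median log2 fold change 0.15). Without -/- replicate 2 there were 6 calls, and without +/+ replicate 3 there were 16. Of the 9 calls of the main fit, 2 were also made with lane as a covariate and 5 on lane 3 only. TM7SF2, a sterol reductase, was at 5.74, 8.11 and 10.5 CPM in +/+ and 11.2, 14.7 and 18.2 CPM in -/- larvae. srebf2, the transcription factor that turns on sterol synthesis, was at 57.2, 72.2 and 75.3 CPM in +/+ and 78.2, 84.4 and 93.8 CPM in -/- larvae. Both rose with separate groups (0.87 ± 0.15, adjusted p = 0.000418, and 0.30 ± 0.071, adjusted p = 0.00644). The falls were in MYLIP, which degrades the LDL receptor (ENSDARG00000008859, -0.37 ± 0.064, adjusted p = 0.000516), and ABCA1, a cholesterol exporter (-0.36 ± 0.087, adjusted p = 0.0083). The second ABCA1-type gene, abca1b, was among the genes that rose.

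Among genes of DNA replication and cell division, 30 of 85 tested genes rose and 1 fell (median log2 fold change 0.24), and 79 had a fold change above 0. These counts depended on single clutches. On the log2(TPM + 1) scale 7 and 1 rose and fell. Without +/+ replicate 1, 2, 4 or 6 the calls numbered 16, 14, 16 and 18, and without -/- replicate 4 or 5 they numbered 15 and 16. Of these 31 calls, 9 were also made with lane as a covariate and 7 on lane 3 only.

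TYMS, thymidylate synthase, which makes a DNA building block, was at 7.32, 8.44 and 10.26 CPM in +/+ and 11, 12.1 and 16.3 CPM in -/- larvae. GINS3, a part of the replicative helicase, was at 1.68, 1.86 and 2.12 CPM in +/+ and 2.66, 2.96 and 3.39 CPM in -/- larvae. Their groups were separate (0.59 ± 0.11, adjusted p = 0.00131, and 0.66 ± 0.13, adjusted p = 0.00125). CCNE2, cyclin E2 of the entry into S phase, rose by 0.55 (adjusted p = 0.00155). Neither GINS3 (adjusted p = 0.144 and 0.658) nor CCNE2 (0.0579 and 0.118) was called with the lane covariate or on lane 3 only. RRM2, a subunit of ribonucleotide reductase, which needs iron (ENSDARG00000020711), was at 1.47, 3.08 and 6.4 CPM in +/+ and 4.94, 7.26 and 11.6 CPM in -/- larvae (1.15 ± 0.26, adjusted p = 0.00542). PCNA, the sliding clamp of DNA polymerase, rose by only 0.25, a call lost without any 1 of 9 clutches (adjusted p up to 0.108). CCND1, cyclin D1, which took the most reads of the list, had no call (0.13 ± 0.049, adjusted p = 0.0822), and its sign changed on the log2(TPM + 1) scale (-0.051).

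Of 12 tested histone genes 8 rose and 1 fell, and 5 were called without +/+ replicate 6 or -/- replicate 5. Of these 9 calls, 1 were also made with lane as a covariate and 2 on lane 3 only. H3-3B, a replication-independent histone H3, was at 546, 553 and 571 CPM in +/+ and 633, 671 and 716 CPM in -/- larvae (0.27 ± 0.042, adjusted p = 0.000187). h1m, a maternal linker histone, fell from 3.42 to 2.59 CPM (-0.46 ± 0.13, adjusted p = 0.0198). In the p53 list 4 of 31 genes rose and 2 fell (3 and 5 on the log2(TPM + 1) scale), with a median log2 fold change of -0.06. bbc3 was among those that fell. The rises were in tigara (0.65 ± 0.092, adjusted p = 6.58e-05), mdm2, which degrades p53 (0.36 ± 0.067, adjusted p = 0.00105), RRM2B, a p53-induced ribonucleotide reductase subunit (0.51 ± 0.099, adjusted p = 0.00151), and CCNG1, cyclin G1 (0.28 ± 0.082, adjusted p = 0.0249). The call for CCNG1 was lost without +/+ replicate 5 (adjusted p = 0.0522), +/+ replicate 6 (0.0545) or -/- replicate 5 (0.062), and on the log2(TPM + 1) scale (0.0536), with 0.00753 to 0.327 over all alternatives.

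Aldehyde and oxidant defense did not move as a block. Of 38 aldehyde dehydrogenase, reductase and glyoxalase genes, 1 rose and 4 fell, akr1a1a among the latter. The rise was in ALDH9A1 (ENSDARG00000055331), an aldehyde dehydrogenase (1.00 ± 0.26, adjusted p = 0.0125). ptgr1.1, a reductase of unsaturated aldehydes and ketones, was at 11.5, 27 and 39.9 CPM in +/+ and 9.6, 11 and 12.8 CPM in -/- larvae. Its groups overlapped through the lowest +/+ clutch (-1.26 ± 0.24, adjusted p = 0.00111). DCXR, a carbonyl reductase, fell with separate groups (-0.64 ± 0.15, adjusted p = 0.0062). With lane as a covariate 1 of the 5 calls of this list was made again, and on lane 3 only 2 were. Neither ALDH9A1 (adjusted p = 0.209 and 0.163) nor DCXR (0.0591 and 0.0509) was among them.

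Of the electrophile and oxidant response, 10 of 82 tested genes rose and 5 fell (median log2 fold change 0.038), or 9 and 7 on the log2(TPM + 1) scale. None of the 13 genes of Nrf2 and its regulators was called in edgeR's test (1 at an unadjusted p under 0.05, and 1 called by DESeq2's Wald test), and of 36 glutathione enzymes 5 rose and 4 fell. Among those that rose, gstk1, a glutathione transferase of mitochondria and peroxisomes, was at 19.3, 20.2 and 23.2 CPM in +/+ and 29.1, 31.2 and 33.1 CPM in -/- larvae. MGST3, a microsomal glutathione transferase, was at 32.6, 37.5 and 44.8 CPM in +/+ and 47.7, 57.9 and 68.1 CPM in -/- larvae. NQO1, a quinone reductase, was at 33.7, 43.5 and 48.3 CPM in +/+ and 59.4, 66.9 and 105 CPM in -/- larvae. All had separate groups (0.57 ± 0.068, adjusted p = 9.72e-06, 0.63 ± 0.089, adjusted p = 6.71e-05 and 0.81 ± 0.12, adjusted p = 0.000154).

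gstt1b rose by 1.39 (adjusted p = 0.000181). gstp1.1, a pi-class glutathione transferase, was at 8.38, 9.84 and 15.4 CPM in +/+ and 16.3, 21.16 and 77.6 CPM in -/- larvae, where -/- replicate 2 stood far above the others (1.53 ± 0.37, adjusted p = 0.00725). Without that clutch the log2 fold change was 1.02 (adjusted p = 0.0186, with 0.000881 to 0.096 over all alternatives). PRDX1, a peroxiredoxin, rose by 0.30 (adjusted p = 0.00179). Of the glutathione peroxidases, gpx1a was at 52.5, 60.5 and 70.1 CPM in +/+ and 29.3, 35.9 and 50.5 CPM in -/- larvae (-0.71 ± 0.12, adjusted p = 0.00029) and gpx9 fell as well (-0.68 ± 0.11, adjusted p = 0.000341). In drug and steroid metabolism 9 of 115 tested genes rose and 13 fell (median log2 fold change -0.042). Cytochrome P450 genes among them were split, with CYP4V2 (ENSDARG00000061585) higher (0.53 ± 0.072, adjusted p = 4.36e-05) and cyp2x10.2 (-1.81 ± 0.26, adjusted p = 9.53e-05) and cyp1d1 (-0.67 ± 0.093, adjusted p = 5.31e-05) lower.

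Skin genes held some of the clearest single changes of all lists, although only 8 of 55 were called (2 higher, 6 lower). ANXA1, annexin A1, a membrane-binding protein that dampens inflammation in mammals, was at 47.7, 54.6 and 58.3 CPM in +/+ and 125, 185 and 232 CPM in -/- larvae. anxa1c, another annexin A1 copy, was at 54.1, 68.9 and 92.1 CPM in +/+ and 22.8, 30.9 and 38.9 CPM in -/- larvae. These copies moved apart without overlap of the groups (1.72 ± 0.11, adjusted p = 1.4e-09, and -1.17 ± 0.15, adjusted p = 1.83e-05). krt94, a keratin, rose from 41.7 to 75.3 CPM (0.85 ± 0.12, adjusted p = 4.2e-05). krt1-19e, another keratin, was at 1565, 1924 and 2228 CPM in +/+ and 1135, 1268 and 1344 CPM in -/- larvae (-0.60 ± 0.091, adjusted p = 0.000147). krt4 had no call (0.015 ± 0.085, adjusted p = 0.929), with a sign that changed in several alternatives.

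Of connective tissue genes, 5 of 67 tested genes rose and 8 fell (median log2 fold change -0.039). col14a1b, a fibril-associated collagen, was at 162, 168 and 178 CPM in +/+ and 103, 119 and 132 CPM in -/- larvae (-0.52 ± 0.056, adjusted p = 2.77e-06), and DCN, decorin, fell by 0.27 on the log2 scale (adjusted p = 0.00129). DCN was called neither with the lane covariate (adjusted p = 0.344) nor on lane 3 only (0.068). Pigment cell genes fell in 4 of 26 with none higher, led by XDH, a purine enzyme of colored pigment cells (-0.52 ± 0.081, adjusted p = 0.000194). PTU was in the medium of both genotypes, per the labels. Of the 4 pigment cell calls, 0 were also made with lane as a covariate and 1 on lane 3 only. Calls for pigment cells numbered 2 without +/+ replicate 2 or 4, or -/- replicate 4 or 5.

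In the eye, 5 of 71 photoreceptor genes rose and 6 fell (2 and 11 on the log2(TPM + 1) scale), and 7 were called without +/+ replicate 2 or 5. rbp3, which carries retinoids between photoreceptors and pigment epithelium, was at 215, 305 and 325 CPM in +/+ and 125, 178 and 196 CPM in -/- larvae. RPE65, the isomerase of the visual cycle (ENSDARG00000007480), was at 216, 259 and 272 CPM in +/+ and 169.8, 192 and 217 CPM in -/- larvae. pde6ha, a cone phosphodiesterase subunit, was at 131, 138 and 150.1 CPM in +/+ and 54.4, 84.8 and 121 CPM in -/- larvae. All fell, RPE65 with slightly overlapping groups (-0.79 ± 0.14, adjusted p = 0.000764, -0.40 ± 0.065, adjusted p = 0.000298 and -0.68 ± 0.13, adjusted p = 0.00138).

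Of 57 lens genes 7 fell and none rose (median log2 fold change -0.11). The count was 3 without +/+ replicate 3, 4 without +/+ replicate 4 or -/- replicate 2 or 4, and 15 without -/- replicate 5. The falls were in gamma crystallins such as crygm2e (-0.96 ± 0.19, adjusted p = 0.00211), whose copies are near-identical, and in BFSP2, a lens filament protein (-0.37 ± 0.083, adjusted p = 0.00419), and MIP, an aquaporin of lens fibers.

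Of 81 neuronal genes 1 rose and 3 fell (1 and 7 on the log2(TPM + 1) scale), and glial genes had 4 of 35 higher (2 higher and 4 lower on the log2(TPM + 1) scale). Both lists had 2 calls without +/+ replicate 4, as had neurons without +/+ replicate 6 or -/- replicate 2 or 5 and glia without -/- replicate 3. Of 63 endothelial genes 1 rose and 3 fell. The leading fall was in FLI1, the vascular transcription factor whose promoter also drives the EGFP transgene of this line, at 118, 122 and 145 CPM in +/+ and 60.2, 69.6 and 87.7 CPM in -/- larvae. Its groups were separate (-0.79 ± 0.08, adjusted p = 1.38e-06). klf2a, which responds to blood flow, fell as well (-0.74 ± 0.14, adjusted p = 0.00115). Of the 4 endothelial calls, only that for FLI1 was also made with the lane covariate (adjusted p = 0.00548) and on lane 3 only (0.000608). klf2a was called in neither of these fits. In the kidney list 4 of 32 rose and 1 fell, with SLC4A4, a bicarbonate transporter (ENSDARG00000013730), at 133, 140.4 and 147 CPM in +/+ and 170.2, 179 and 190.4 CPM in -/- larvae (0.35 ± 0.047, adjusted p = 3.03e-05).

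Immediate early genes are those that neurons and other cells switch on within minutes of stimulation. Of 45 tested, 8 fell, none rose and 37 had no call, with a median log2 fold change of -0.25 and 39 genes below 0. None of the 8 calls was made with the lane covariate or on lane 3 only. The count was 3 or 4 without +/+ replicates 1 to 5 or -/- replicates 1, 2 or 6, each left out in turn. NPAS4, a neuronal activity factor (ENSDARG00000055752), was at 27.6, 70.3 and 90.2 CPM in +/+ and 10.31, 37.2 and 47.5 CPM in -/- larvae (-1.10 ± 0.31, adjusted p = 0.0202). SOCS3, a cytokine-induced inhibitor (ENSDARG00000025428), was at 9.36, 59.5 and 71 CPM in +/+ and 5.07, 22.6 and 31 CPM in -/- larvae, where +/+ replicate 6 was far below its group (-1.39 ± 0.44, adjusted p = 0.038). That call was lost without any 1 of 8 clutches (adjusted p up to 0.0797) and held without +/+ replicate 6.

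Immune genes differed mostly by family member. Of interferon-induced and antigen presentation genes, 10 of 81 tested genes rose and 10 fell (median log2 fold change -0.016). Among 36 MHC genes, which present peptides and vary between zebrafish haplotypes, 4 rose and 8 fell. mhc1uba was at 1.84, 2.61 and 4.1 CPM in +/+ and 0, 0.1 and 0.197 CPM in -/- larvae. mhc1zka was at 0, 0.0245 and 0.0987 CPM in +/+ and 0.641, 0.987 and 2.67 CPM in -/- larvae. mhc1zca, of the same Z lineage, was at 4.52, 4.8 and 7.12 CPM in +/+ and 10.5, 13.8 and 14.5 CPM in -/- larvae. These 3 genes had separate groups, in opposite directions (-4.89 ± 0.38, adjusted p = 3.26e-08, 5.01 ± 0.58, adjusted p = 6.66e-06 and 1.31 ± 0.18, adjusted p = 4.79e-05). Summed over the 6 clutches, mhc1zka had 151 against 4 counts, a ratio of 38.3 (exact 95% interval 14.7 to 142), an interval that covers counting error only.

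Of 86 genes of finTRIM, NITR, GIMAP and related families 11 rose and 8 fell (6 and 9 on the log2(TPM + 1) scale), including btr23 (2.28 ± 0.28, adjusted p = 1.37e-05) and trim35-29 (2.23 ± 0.26, adjusted p = 8.62e-06) among those higher, and btr25 (-2.03 ± 0.28, adjusted p = 5.02e-05) and ftr24 (-0.57 ± 0.083, adjusted p = 8.93e-05) among those lower. Such families hold near-identical copies, and the counting of reads between them is uncertain. In the list of neutrophils and macrophages 2 of 45 rose and 7 fell. ctss2.2, a cathepsin S gene, was at 8.42, 10.31 and 11.6 CPM in +/+ and 0.59, 1.23 and 2.25 CPM in -/- larvae (-2.85 ± 0.21, adjusted p = 1.56e-08). In the inflammation list 1 of 54 rose and 6 fell, with 12 calls without +/+ replicate 6. CXCL14, a chemokine, and tlr18, a fish Toll-like receptor, fell with separate groups (-0.42 ± 0.082, adjusted p = 0.00156, and -0.53 ± 0.11, adjusted p = 0.00269). CXCL14 was called on lane 3 only (adjusted p = 0.00407) but not with the lane covariate (0.158). Complement and coagulation had 2 higher and 4 lower of 62.

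Of the remaining lists, 5 of 37 hypoxia genes rose and 3 fell (2 and 4 on the log2(TPM + 1) scale). EPAS1, a hypoxia-inducible factor subunit (ENSDARG00000008697), rose (0.37 ± 0.062, adjusted p = 0.000387), whereas its dimer partner arnt was at 17.1, 18.5 and 26.5 CPM in +/+ and 11, 11.7 and 12.8 CPM in -/- larvae and fell (-0.77 ± 0.12, adjusted p = 0.000161). Of 83 lysosome genes 11 rose and 5 fell. In polyamine, lysine and amino acid metabolism 6 of 65 rose and 4 fell (4 and 6 on the log2(TPM + 1) scale), the clearest fall being CTH, which makes cysteine (ENSDARG00000032206), at 3.29, 3.98 and 4.23 CPM in +/+ and 0.868, 1.16 and 1.54 CPM in -/- larvae (-1.70 ± 0.17, adjusted p = 1.53e-06). Counts in the other lists were near or under the share of all genes. Those higher and lower numbered 0 and 3 of 60 for the circadian clock, 2 and 3 of 58 for retinoid handling, 3 and 1 of 43 for the integrated stress response, 2 and 1 of 40 for hair cells, 2 and 0 of 38 for autophagy, 1 and 1 of 31 for endoplasmic reticulum stress, 1 and 2 of 26 for the glucocorticoid response, 2 and 0 of 22 for ionocytes, 1 and 0 of 22 for the endocrine pancreas, 1 and 2 of 19 for lymphocytes, and 0 and 0 of 5 for hatching gland and yolk (2 at an unadjusted p under 0.05 and 0 called by DESeq2's Wald test). Calls for the integrated stress response numbered 7 without +/+ replicate 3, those for retinoid handling 3 without +/+ replicate 1 or -/- replicate 6, and those for hair cells 5 without +/+ replicate 3 or -/- replicate 2. The other counts of this group, of at most 3 calls each, changed by 1 or 2 genes when 1 clutch was left out. On the log2(TPM + 1) scale hair cells had 1 higher and 2 lower, and autophagy 0 and 1.

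Among the largest changes were genes at or near the detection floor in 1 genotype. At most 3 counts in every -/- clutch and more than 10 in every +/+ clutch were found for 7 genes, and the reverse for 4. The largest ratio among the 7 was that of ENSDARG00000109267, which has no symbol, with 1408 against 3 counts, a ratio of 463 (exact 95% interval 158 to 2247). si:ch211-239f4.6 was at 8.97, 23.4 and 29.1 CPM in +/+ and 0, 0.0747 and 0.148 CPM in -/- larvae. si:dkey-23a23.1 was at 2.9, 9.21 and 14 CPM in +/+ and 0, 0.0499 and 0.0987 CPM in -/- larvae. Their -/- clutches lay at 0 to 3 counts each. Summed over 6 +/+ and 6 -/- clutches, si:ch211-239f4.6 had 2645 against 9 counts, a ratio of 289.8 (exact 95% interval 152 to 634), and si:dkey-23a23.1 had 1006 against 5 counts, a ratio of 198 (exact 95% interval 84.7 to 612). MSH4, a protein of meiotic recombination, was at 4.79, 7.83 and 9.86 CPM in +/+ and 0.153, 0.252 and 0.554 CPM in -/- larvae (-4.65 ± 0.25, adjusted p = 1.28e-10). pcdh1g1, a clustered protocadherin of neurons, and or113-4, an odorant receptor, had log2 fold changes of -4.58 and -3.88.

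In the other direction, 2 of the 4 genes had no count in any +/+ clutch. si:dkey-125e8.3 had 550 counts over the 6 -/- clutches and ENSDARG00000117704 had 301, at least 30.5-fold and at least 16.7-fold higher than a floor of 3 counts per +/+ library. These 2 genes and ENSDARG00000109267 were chosen after their values were seen. loc101882496 was at 0.498, 0.594 and 0.888 CPM in +/+ and 10.4, 27.6 and 39.5 CPM in -/- larvae (5.34 ± 0.29, adjusted p = 1.61e-10), and ccdc125 was at 0.74, 1.18 and 1.47 CPM in +/+ and 8.06, 10.1 and 13.5 CPM in -/- larvae (3.14 ± 0.16, adjusted p = 9.98e-11). si:dkey-88j15.3 rose by 4.50 (adjusted p = 5.58e-10). CCDC134 is listed under 2 gene IDs. ENSDARG00000103285 was at 0, 0.0498 and 0.203 CPM in +/+ and 6.35, 8.02 and 15.4 CPM in -/- larvae, whereas ENSDARG00000030508 was at 1.98, 2.32 and 3 CPM in +/+ and 0, 0.617 and 1.75 CPM in -/- larvae. These IDs changed in opposite directions (6.72 ± 0.45, adjusted p = 4.19e-09, and -1.78 ± 0.41, adjusted p = 0.00576). The fall of ENSDARG00000030508 was called neither with the lane covariate (adjusted p = 0.0889) nor on lane 3 only (0.0571). KCNK5, a potassium channel that was chosen after its values were seen, also has 2 IDs with changes of opposite sign, -3.16 ± 0.16, adjusted p = 4.31e-11 for ENSDARG00000023587 and 0.58 ± 0.12, adjusted p = 0.00256 for ENSDARG00000012390. The rise of ENSDARG00000012390 was called on lane 3 only (adjusted p = 0.0478) but not with the lane covariate (0.208). How reads were shared between such copies was not tested.

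The rest of the 10 largest rises among genes with a symbol were in si:ch211-198k9.11, si:ch73-65n21.2, si:ch73-65n21.1, si:dkey-54i3.2, si:ch73-364h19.2 and zgc:171679, with log2 fold changes from 2.71 to 4.50. Of these, si:ch73-364h19.2 had an adjusted p of 0.116 by DESeq2's Wald test (0.000595 to 0.116 over all alternatives). The others with the 10 largest falls included si:ch211-207c6.7, lnc.290, zgc:194659 and mhc1uba, with log2 fold changes from -3.44 to -4.89. si:ch211-121a2.2, chosen after its values were seen, fell from 40.8, 46.5 and 55 to 6.13, 6.92 and 8.95 CPM (-2.73 ± 0.13, adjusted p = 2.6e-11).

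**Figure D5:**
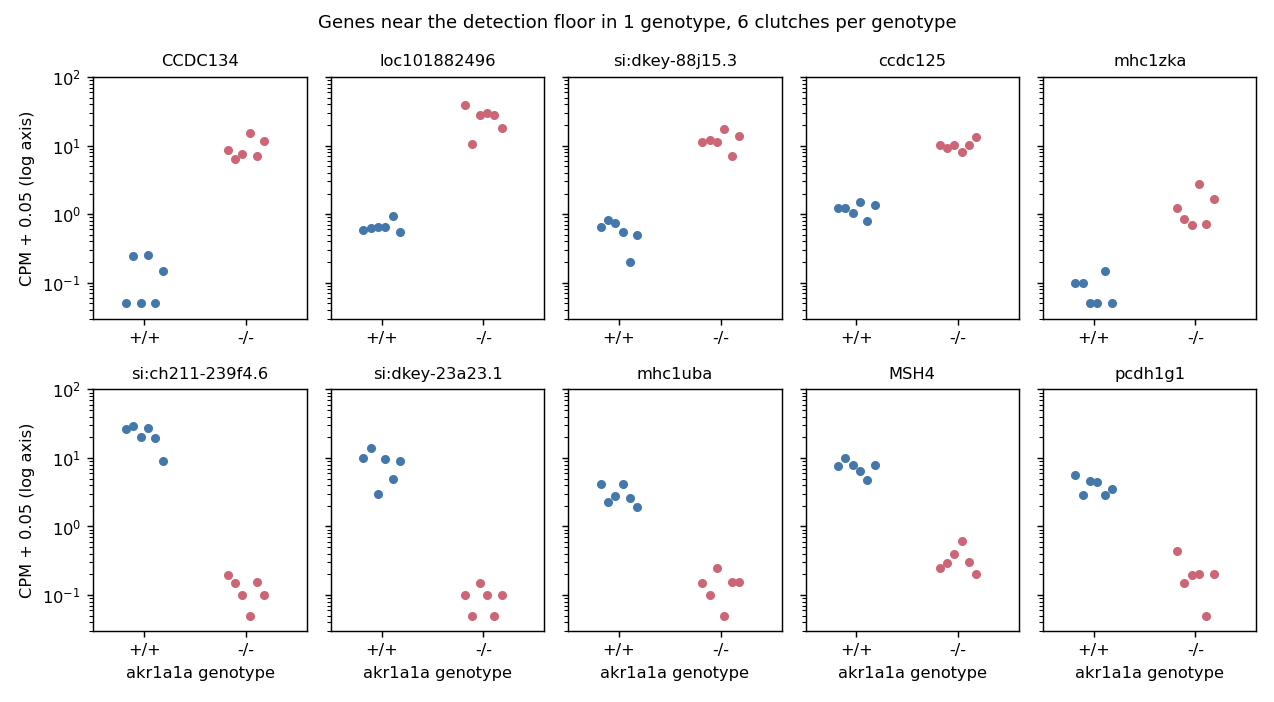
CPM plus 0.05 on a log axis of 10 genes that were low in 1 genotype, several of them near the detection floor, in each of 6 +/+ (blue) and 6 -/- (red) clutches. The top row holds genes that are higher and the bottom row genes that are lower in -/- larvae, and the groups of all 10 are separate.

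The position of the called genes was described by their order on the chromosomes of the RefSeq assembly GRCz12tu, in which 15315 tested genes could be placed by a unique name. Of the 50 placed genes nearest to akr1a1a, 25 on each side, 14 (28%) were called, and of the nearest 100, 27 (27%). The shares were 21.5% of the nearest 200, 18.4% of the 879 genes on the same chromosome, these neighbors included, and 15.1% of 14435 genes on other chromosomes. The called neighbors changed in both directions, among them SHPK (log2 fold change 0.84), PARP8 (-0.69) and trpv1 (-0.79). Whether these calls go with the chromosome segment that carries the mutation was not tested.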

How the data were processed

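RNA was analyzed from whole zebrafish larvae collected at 120 hpf. Estimated counts per gene, not normalized, and TPM values, scaled within each sample, had been deposited by the authors for 32520 Ensembl gene IDs. The submitters' processing notes name Trim Galore 0.6.4, kallisto 0.4.6 and the build GRCz11. The labels do not state that strand was used, so that reads of a gene and of an overlapping antisense gene cannot be told apart. Symbols were found for 29201 IDs.

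The design had assumed whole counts. Estimated counts were therefore rounded and tested with edgeR 4.0.16 in R 4.3.3 (glmQLFit and glmQLFTest, TMM, filterByExpr) in a model with 3 group means over all 18 samples and 15 residual degrees of freedom. P-values were adjusted by Benjamini-Hochberg over 23223 genes. SE, an approximation, was taken as the size of the change over the root of the F statistic. The script was tested on simulated data with known fold changes. Counts lack molecular identifiers, so the floor of 3 counts covers counting error only.

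The comparison, the 55 gene lists and the alternatives were chosen with earlier results of these data known, and no list was tested as a set. The lists hold 3032 genes, and 1782 of 1952 entries were found. Named genes followed a rule that took akr1a1a and its second gene, the 10 largest rises and falls among genes with a symbol (adjusted p under 0.05, mean log2 CPM of at least 1, no overlap), and per list the 4 smallest adjusted p and the most abundant gene. Other names from the lists were chosen after their values were seen.

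The alternatives were DESeq2's size factors, DESeq2 1.42.0's Wald test, no filter, at least 10 counts in every sample, only the 12 samples, a replicate block, a lane covariate, lane 3 only, limma 3.58.1 on log2(TPM + 1), and leaving out each of the 12 samples. Gene order came from RefSeq's GRCz12tu, another build than that of the files, and served only to find neighbors. Insulin, MAPK and kinase genes were not used here, and some items are not reported here.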

Additional observations from a re-analysis of the deposited data

Results flagged for a closer look

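Within each genotype, the highest or lowest clutch of each gene named in the report was compared with the rest of its group by Dixon's ratio and its critical value for 6 samples. Of 326 groups of values (163 genes in each genotype), 17 (5.21%) had a clutch that stood apart, and chance alone flags about 1 in 20. fth1a was at 834 CPM in +/+ replicate 3, the highest of its group, and the nearest clutch at 747 CPM. SLC40A1 was at 106 CPM in +/+ replicate 2, the highest of its group, and the nearest clutch at 89.8 CPM. PDK1 was at 31.2 CPM in +/+ replicate 4, the highest of its group, and the nearest clutch at 26.8 CPM. COL2A1 was at 979 CPM in +/+ replicate 3, the lowest of its group, and the nearest clutch at 1145 CPM. mlxipl was at 0.203 CPM in +/+ replicate 4, the lowest of its group, and the nearest clutch at 0.494 CPM. PRDX1 was at 227 CPM in +/+ replicate 2, the lowest of its group, and the nearest clutch at 251 CPM. DCN was at 150.5 CPM in +/+ replicate 6, the lowest of its group, and the nearest clutch at 162 CPM. RPE65 was at 216 CPM in +/+ replicate 6, the lowest of its group, and the nearest clutch at 255 CPM. SOCS3 was at 9.36 CPM in +/+ replicate 6, the lowest of its group, and the nearest clutch at 53.1 CPM. cyp1d1 was at 42.7 CPM in +/+ replicate 3, the highest of its group, and the nearest clutch at 36.6 CPM. loc101882496 was at 0.888 CPM in +/+ replicate 5, the highest of its group, and the nearest clutch at 0.61 CPM.

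akr1a1a was at 0.741 CPM in -/- replicate 1, the highest of its group, and the nearest clutch at 0.411 CPM. CCNE2 was at 6.52 CPM in -/- replicate 1, the lowest of its group, and the nearest clutch at 8.32 CPM. h1m was at 2.02 CPM in -/- replicate 4, the lowest of its group, and the nearest clutch at 2.5 CPM. gstp1.1 was at 77.6 CPM in -/- replicate 2, the highest of its group, and the nearest clutch at 36.7 CPM. hspb15 was at 5.64 CPM in -/- replicate 4, the highest of its group, and the nearest clutch at 5.04 CPM. si:ch211-207c6.7 was at 0.353 CPM in -/- replicate 4, the highest of its group, and the nearest clutch at 0.102 CPM. The call for SOCS3 was held without its low clutch and that for gstp1.1 without its high clutch.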

How the results depend on the processing

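The main counts were 3752 genes called, 1903 higher, 1849 lower and 685 at 2-fold or more. On lane 3 only they were 1859, 905 and 954, and with the lane covariate 1498, 758, 740 and, at 2-fold, 410. limma on log2(TPM + 1) gave 1210 higher and, at 2-fold, 304 genes. With at least 10 counts in every sample 3200 genes were called, 261 of them at 2-fold. That filter drops any gene under 10 counts in 1 or more samples, and so also genes near the floor in 1 genotype. The causes of these differences were not tested. Without 1 clutch, 3097 to 3612 genes were called, 1544 to 1918 higher, 1519 to 1756 lower and 670 to 721 at 2-fold. Of the 163 genes named, 156 were called, and 151 of these without any 1 clutch as well. Many were named for a small p, for separate groups or after their values were seen, so that share does not stand for all calls. Of all 3752 calls, 2470 were made in every fit that left out 1 clutch. With the lane covariate 58 of the calls for named genes and on lane 3 only 34 were lost. With at least 10 counts in every sample 137 of the named genes could be tested. On the log2(TPM + 1) scale the calls for SLC4A1 (adjusted p = 0.081), RRM2 (0.0857), PCNA (0.0814) and SOCS3 (0.0584) were lost too. The sign changed for 4 named genes, none of them called. For krt4 it did so with the lane covariate (-0.20), with limma (-0.052) and without +/+ replicate 1 or 2 or -/- replicate 6 (-0.057 to 0.060 over the clutches left out), and for apoa1b without +/+ replicate 3 or 5 or -/- replicate 4 or 6 (-0.064 to 0.040). For actc1b it did so with the lane covariate (-0.025) and for CCND1 with limma (-0.051).

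With the replicate number as a block 4828 genes were called, 2465 higher and 2363 lower. Same-numbered -/- and +/+ clutches deviated together only weakly (correlations from 0.0387 to 0.131). Deviations were taken from the mean of each genotype, so a positive correlation with the same number pushes the mean with the other numbers below 0. Those means (from -0.0289 to -0.00508) therefore say nothing further about pairing. Only replicate 6, 1 of 6 -/- clutches, correlated best with its own number. The labels do not say that same-numbered clutches share parents or a day, so the numbers were not taken to pair the clutches in the main fit. The depth limits what can be said of hamp, the MHC genes and other genes near 0.15 CPM.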
